A study of Homo sapiens with 6 samples.

Results

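Homologous recombination copies the sister chromatid to mend double-strand breaks, and the Fanconi anaemia pathway unhooks crosslinks between the strands of DNA and hands the resulting break to recombination. MRE11, RAD50 and NBN hold the broken ends, nucleases trim them, BRCA1 and BRCA2 with their partners prepare them for copying from the sister, and the BLM helicase with RMI1 and RMI2 takes the joined molecules apart. Recombination works in S and G2 phase, when a sister chromatid is present, and many of its genes are transcribed at that time of the cell cycle. The 36 genes described here encode proteins of these steps. They form a list of gene symbols, matched to the symbols in the deposited tables, and were all found there, among 21503 genes with counts. All 36 passed the filter on low counts, as did 19430 genes in all.

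RNA came from UMUC3 cells, a line derived from a human bladder carcinoma, grown for 14 days in the bladders of C57 nude mice. The tumours carried either a knockdown of GANAB, which encodes the catalytic subunit of glucosidase II of the endoplasmic reticulum, or control cells, and each group had 3 libraries. Nude mice lack a working thymus but keep other host cells, and host RNA could enter a tumour sample. The sources used here do not give how the knockdown was made, what the control cells carried, whether either line was 1 clone or whether each library had its own mouse, so p-values measure the spread between these libraries, which may be technical.

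The knockdown libraries held 36619291 to 40039584 estimated counts and the control libraries 11737837 to 36381218. GANAB was at 231, 238 and 231 CPM in knockdown libraries 1, 2 and 3, against 685, 825 and 661 CPM in control libraries 1, 2 and 3 (counts scaled to library size with TMM factors, the scale of all CPM values here). Between libraries of a group, genes varied with a biological coefficient of 10.7% in knockdown and 53.4% in control samples. Control library 1 stood apart, with 29.2% of its counts on the 2 mitochondrial ribosomal RNA genes, against 2.11 to 2.43% in the knockdown libraries and 0.928 and 1.1% in control libraries 2 and 3. Of 13 epithelial and urothelial markers, KRT8 and KRT18 were abundant (means of 162 and 201 TPM in knockdown, 123 and 169 TPM in control libraries), EPCAM and CDH1 averaged under 1 TPM, and KRT20 and UPK3A were listed at 0 in every library.

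Of the 36 repair genes, 13 fell in the knockdown libraries and none rose (edgeR quasi-likelihood test, adjusted p under 0.05 over all 19430 genes). Among all tested genes 8.31% were called, 3.72% lower and 4.59% higher. The share among the repair genes was 36.1%. Their median log2 fold change, knockdown over control, was -0.74, and 34 of 36 values were below 0, while the median over all tested genes was 0.03. No repair gene rose at an unadjusted p under 0.05 in edgeR either, and none of the 36 was called higher by DESeq2 or limma-voom. All 13 genes that fell, and 9 more, had knockdown values below every control value, which makes 22 of 36, where 15.7% of all tested genes lay wholly lower and 21.9% wholly higher.

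All 13 calls needed the full set of knockdown libraries: without knockdown library 1, 2 or 3 no repair gene passed in edgeR (18, 20 and 18 at an unadjusted p under 0.05), while 10, 22 and 13 passed without control library 1, 2 and 3. The median log2 fold change of the 36 was -0.75, -0.72 and -0.78 in the 3 fits without a knockdown library, and -0.79, -0.65 and -0.87 without control library 1, 2 and 3. The 9 genes gained without control library 2 were BRIP1, RAD51C, RAD54B, RAD50, NBN, RMI1, CHEK1, FANCA and UBE2T. Without control library 1, BRCA2, MRE11, EXO1 and BLM no longer passed (edgeR adjusted p = 0.0553, 0.0631, 0.0773 and 0.068). UBE2T, not called with all libraries, passed there (edgeR adjusted p = 0.0334). DESeq2 called 20 and limma-voom with quality weights 19. In a tumour sample, fewer dividing cells and less of these transcripts per cell cannot be told apart. Markers of smooth muscle moved with the groups as well. ACTA2, MYH11, CNN1 and TAGLN rose, 4 of 5 tested. The 5 markers summed to 683 to 745 TPM in knockdown libraries and 153 to 318 TPM in control libraries. These and the other host markers were matched by human symbol, and whether host or tumour cells made the RNA was not tested. The 6 fibroblast markers, led by COL1A2, summed to 55.0 to 70.7 TPM in knockdown and 7.86 to 43.4 TPM in control libraries, with LUM at 0 throughout. The 5 endothelial markers, among which CDH5 was highest, summed to 1.53 to 2.48 TPM in knockdown and 0.399 to 0.905 TPM in control libraries. The 6 leukocyte markers summed to 46.6 to 50.3 TPM in knockdown and 55.7 to 210.4 TPM in control libraries, nearly all of it CD68. The part of host cells in the fall was not tested. A fit with a host marker score as a covariate cannot separate it from the knockdown. That score was 3.23, 3.32 and 3.36 in knockdown libraries 1, 2 and 3, above the 3.03, 1.99 and 2.32 of control libraries 1, 2 and 3. In that fit 33 of 36 values stayed below 0 and no repair gene passed (18 at an unadjusted p under 0.05 in edgeR). The median of the 36 was -0.79 in that fit, while UBE2T was at -0.18, RAD51C at -0.22, CHEK2 at -0.15 and XRCC3 at -0.015.

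**Figure D1:**
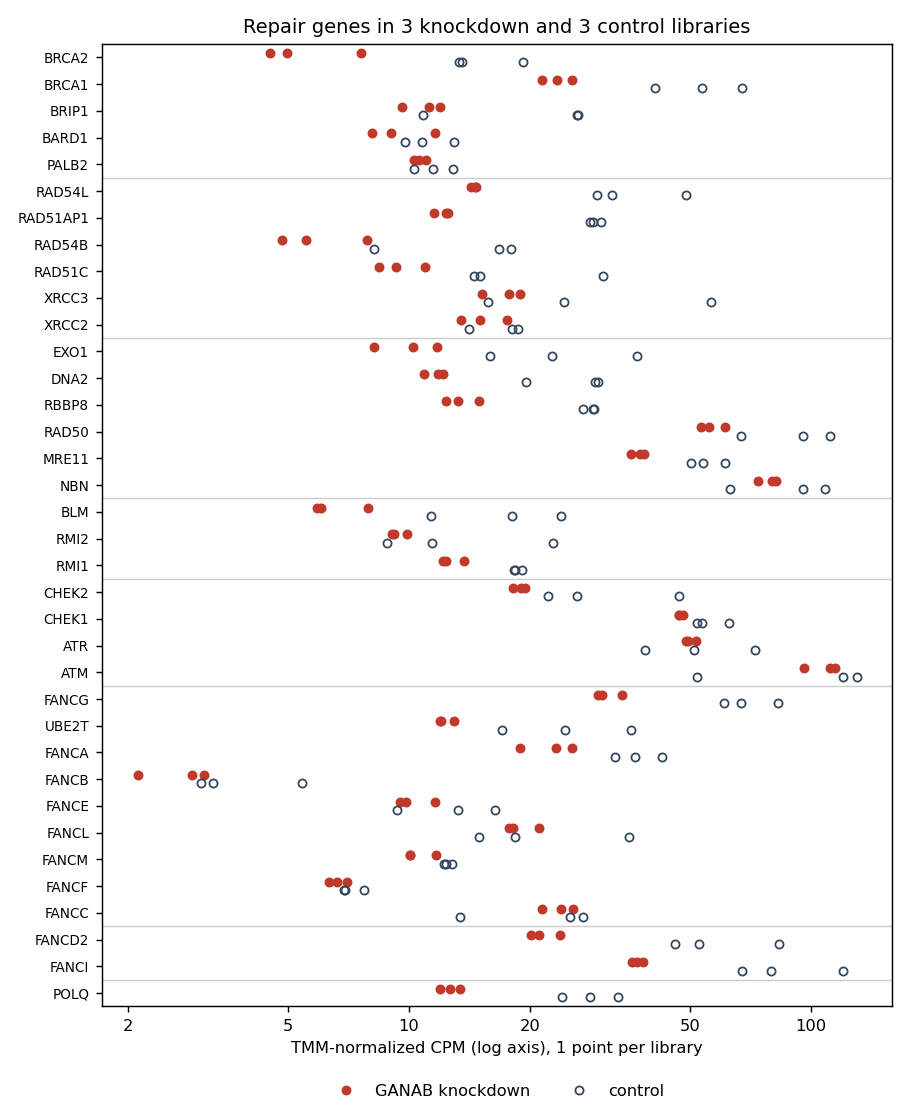
TMM-normalized CPM of the 36 repair genes on a log axis, 1 point per library, filled for the 3 GANAB knockdown and open for the 3 control libraries, with horizontal lines between role groups. The knockdown points lie close together and, for 22 genes, wholly below the controls, while the control points spread widely, as for XRCC3 and ATM.

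The genes of BRCA1, BRCA2 and their partners were split. BRCA1, the scaffold that steers breaks toward recombination, was at 23.4, 25.5 and 21.4 CPM in knockdown libraries 1, 2 and 3, against 53.7, 67.6 and 40.9 CPM in control libraries 1, 2 and 3. Every knockdown value was below every control value, and BRCA1 fell by 1.21 in log2 terms (edgeR adjusted p = 0.0169, SE 0.204). BRCA2, a tumour suppressor that acts after the ends are trimmed, was at 4.52, 7.61 and 4.97 CPM in knockdown libraries, against 19.2, 13.3 and 13.6 CPM in controls. It fell by 1.43 (SE 0.285, edgeR adjusted p = 0.0272) and was the second lowest of the 36 in fold change, while in TPM its level was also the second lowest. In TPM BRCA2 was at 0.673, 2.05 and 1.95 in knockdown libraries, against 2.43, 5.87 and 1.48 in controls, and the groups overlapped. The partners of BRCA1 and BRCA2 did not pass. BRIP1, a helicase bound to BRCA1 and also a Fanconi gene, was at 9.60, 11.9 and 11.2 CPM in knockdown libraries, against 26.3, 10.8 and 26.2 CPM in controls. Control library 2 sat among the knockdown values, so the groups overlapped (log2 fold change -0.95, SE 0.339, edgeR adjusted p = 0.128), and without that library BRIP1 passed (edgeR adjusted p = 0.000982). BARD1, the obligate partner of BRCA1 in its ubiquitin ligase, was at 9.03, 8.07 and 11.6 CPM in knockdown libraries, against 13.0, 9.78 and 10.8 CPM in controls, a log2 fold change of -0.23 (SE 0.232). PALB2, the link between BRCA1 and BRCA2, had a log2 fold change of -0.12 (SE 0.189). On the deposited TPM scale BARD1 and PALB2 were higher in the knockdown without passing, at 3.15 ± 0.910 and 4.38 ± 0.776 TPM, against 2.52 ± 0.235 and 3.45 ± 0.484 TPM in controls (SD, n = 3 each).

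Among 6 genes that act at the strand pairing step, 2 passed. RAD51AP1, which stimulates the pairing of strands, was at 11.6, 12.4 and 12.5 CPM in knockdown libraries, against 28.2, 30.1 and 28.7 CPM in controls. The values were tight in both groups, and RAD51AP1 (ENSG00000111247, chromosome 12, 4538798 to 4560048, plus strand, GRCh38) had the smallest p of the 36, with a fall of 1.25 in log2 terms (edgeR adjusted p = 0.00588, SE 0.147). RAD54L, a motor protein that moves along duplex DNA, was at 14.6, 14.3 and 14.7 CPM in knockdown libraries, against 32.1, 49.0 and 29.5 CPM in controls, and fell by 1.34 (SE 0.219, edgeR adjusted p = 0.0153). RAD54B, its homologue, was at 4.84, 7.84 and 5.56 CPM in knockdown libraries, against 16.7, 8.20 and 17.9 CPM in controls. RAD51C, which works in complexes with XRCC3 and other proteins, was at 10.99, 9.30 and 8.43 CPM in knockdown libraries, against 14.5, 30.4 and 15.1 CPM in controls. The groups did not overlap in either gene, but neither passed (log2 fold changes of -1.23 and -1.06, edgeR adjusted p = 0.0721 and 0.0827). Without control library 2 both passed, RAD51C at -0.62. XRCC3, the partner of RAD51C, had a log2 fold change of -0.90 (SE 0.428), with control library 2 at 56.4 CPM and control library 3 at 15.7 CPM, and it was -0.22 without control library 2. XRCC2, of another such complex, had -0.14 (SE 0.196).

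Break sensing and end resection held the most calls, 4 of 6. RBBP8, the gene of CtIP, which starts resection together with MRE11, was at 14.96, 12.4 and 13.3 CPM in knockdown libraries, against 27.1, 28.8 and 28.97 CPM in controls. It fell by 1.06 (SE 0.156, edgeR adjusted p = 0.0120) to close levels within each group. The long-range resection enzymes fell too. DNA2, a nuclease and helicase, was at 12.2, 11.8 and 10.9 CPM in knockdown libraries, against 29.5, 19.6 and 29.1 CPM in controls (fall of 1.16, SE 0.206, edgeR adjusted p = 0.0196). EXO1, an exonuclease, was at 8.19, 11.8 and 10.2 CPM in knockdown libraries, against 22.7, 37.1 and 15.9 CPM in controls (fall of 1.33, SE 0.323, edgeR adjusted p = 0.0484). Fold changes were nearer 0 in the sensor complex itself. MRE11, its nuclease, was at 35.6, 38.5 and 37.6 CPM in knockdown libraries, against 61.2, 50.4 and 54.1 CPM in controls, and fell by 0.57 (SE 0.134, edgeR adjusted p = 0.0440), the smallest fall among the 13. RAD50, its zinc-hook subunit, had a log2 fold change of -0.69 (SE 0.198, edgeR adjusted p = 0.0751), and NBN, the subunit that recruits ATM, had -0.18 (SE 0.207). NBN was at -0.37 and passed without control library 2 (edgeR adjusted p = 0.019), and it was at -0.060 without control library 3. The 3 subunits of this complex thus ranged from -0.69 to -0.18, while RBBP8, DNA2 and EXO1 lay between -1.33 and -1.06. The differences between genes were not tested.

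Of the complex that dissolves joined molecules, BLM, the helicase mutated in Bloom syndrome, was at 7.92, 6.04 and 5.89 CPM in knockdown libraries, against 18.1, 23.9 and 11.4 CPM in controls. It fell by 1.43 (SE 0.303, edgeR adjusted p = 0.0317). Its cofactor RMI1 was at 12.1, 13.7 and 12.4 CPM in knockdown libraries, against 18.3, 19.1 and 18.4 CPM in controls, without overlap, but did not pass (log2 fold change -0.55, SE 0.161, edgeR adjusted p = 0.0788). The other cofactor, RMI2, was at 9.16, 9.09 and 9.92 CPM in knockdown libraries, against 11.4, 22.9 and 8.81 CPM in controls, with overlapping groups (-0.62, SE 0.352, and -0.11 without control library 2).

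No damage kinase passed. ATM, which answers double-strand breaks, was at 96.2, 115 and 112 CPM in knockdown libraries, against 130.1, 52.0 and 121 CPM in controls. Its log2 fold change was 0.09 (SE 0.318), and it was -0.22 without control library 2. ATR, which answers single-stranded DNA at stalled forks, was at 49.1, 51.8 and 49.4 CPM in knockdown libraries, against 72.5, 38.8 and 51.2 CPM in controls (-0.11, SE 0.224; 0.13 without control library 1). For both kinases the knockdown values lay inside the range of the controls. CHEK1, the kinase downstream of ATR, was at 48.2, 47.0 and 47.1 CPM in knockdown libraries, against 62.8, 52.1 and 53.7 CPM in controls (-0.25, SE 0.131, edgeR adjusted p = 0.287). CHEK2, downstream of ATM, was at 19.0, 19.5 and 18.2 CPM in knockdown libraries, against 26.2, 47.2 and 22.1 CPM in controls (-0.75, SE 0.282, edgeR adjusted p = 0.142), and it was at -0.36 without control library 2. CHEK2 was the only kinase with an unadjusted p under 0.05 (0.0299), and none of the 4 was called by DESeq2 or limma-voom. Without control library 2, CHEK1 passed in edgeR.

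In the Fanconi pathway, the genes of the protein pair that receives ubiquitin fell, while most of the complex that attaches it did not pass in edgeR. The difference between these groups of genes was not tested. FANCD2 (ENSG00000144554, chromosome 3, 10026414 to 10101930, plus strand, GRCh38) was at 21.1, 20.1 and 23.7 CPM in knockdown libraries, against 52.8, 83.5 and 46.1 CPM in controls. Its fall of 1.49 in log2 terms (edgeR adjusted p = 0.0146, SE 0.238) was the largest of the 36 genes. FANCI, its partner in the clamp around DNA, was at 35.98, 37.1 and 38.3 CPM in knockdown libraries, against 79.7, 120.4 and 67.4 CPM in controls (fall of 1.26, SE 0.221, edgeR adjusted p = 0.0187). In both genes control library 2 was highest and the groups did not overlap.

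Of the 8 core complex genes and their E2 enzyme UBE2T, 1 of 9 passed. FANCG (ENSG00000221829, chromosome 9, 35073835 to 35080016, minus strand), a core scaffold subunit, was at 33.8, 29.6 and 30.3 CPM in knockdown libraries, against 60.9, 82.9 and 67.1 CPM in controls, and fell by 1.17 (SE 0.159, edgeR adjusted p = 0.00933). FANCA, the partner of FANCG, was at 23.3, 18.9 and 25.5 CPM in knockdown libraries, against 42.8, 32.5 and 36.5 CPM in controls. UBE2T, which passes ubiquitin to FANCD2 with the ligase FANCL, was at 12.01, 12.9 and 11.97 CPM in knockdown libraries, against 17.1, 35.6 and 24.5 CPM in controls. Both were wholly lower in the knockdown and lay just outside the threshold (log2 fold changes of -0.72 and -1.06, edgeR adjusted p = 0.0506 and 0.0546). FANCA and UBE2T were both called by DESeq2 (adjusted p = 0.00289 and 0.00505) and by limma-voom (adjusted p = 0.0118 and 0.0283). FANCB, which has the lowest TPM of the 36, was at 2.88, 2.11 and 3.09 CPM in knockdown libraries, against 5.41, 3.26 and 3.05 CPM in controls (-0.54, SE 0.370, and -0.26 without control library 1). FANCE, FANCF and FANCC, which join the core to its substrate, and the ligase FANCL and the anchor FANCM had log2 fold changes of -0.33 to 0.11. Their SE were 0.182 to 0.316, and without control library 2 FANCL was at 0.18 and FANCE at -0.51.

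POLQ, which encodes the polymerase of an error-prone end joining used where recombination fails, was at 12.7, 13.4 and 11.97 CPM in knockdown libraries, against 33.1, 28.3 and 24.0 CPM in controls. It fell by 1.17 (SE 0.177, edgeR adjusted p = 0.0130) and the groups did not overlap.

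**Figure D2:**
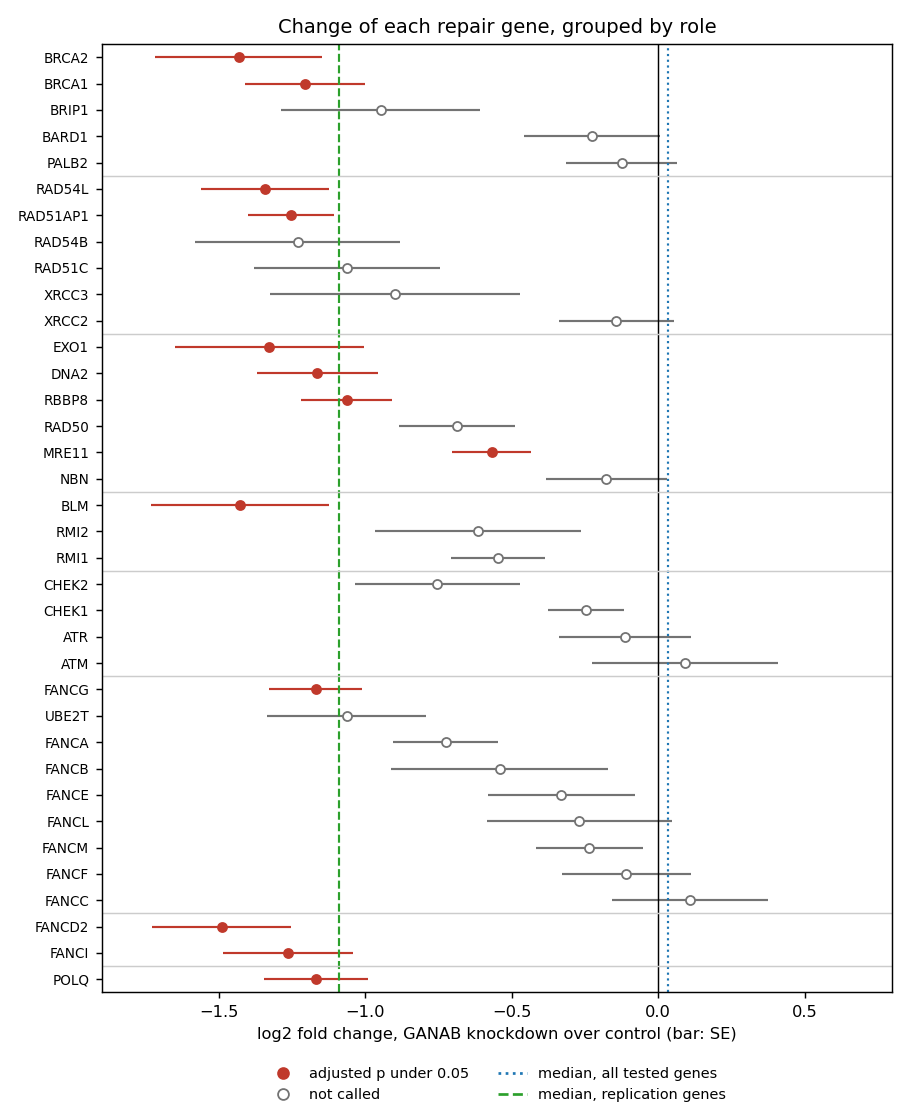
Log2 fold change, GANAB knockdown over control, of each of the 36 genes with its standard error, grouped by role; red points passed at an adjusted p under 0.05. The 13 red points lie at or below -0.57, and the genes near 0 include ATM, ATR, FANCC, FANCF and PALB2.

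Of 65 other genes of the pathway, all tested, 6 fell (9.23%, against 3.72% of all tested genes) and 2 rose (3.08%, against 4.59% of all tested genes), and their median log2 fold change was -0.19. The share that rose is thus no larger than that over all genes. RFWD3, a ubiquitin ligase that clears RPA from damaged DNA, was at 24.2, 23.8 and 25.3 CPM in knockdown libraries, against 64.4, 59.3 and 57.0 CPM in controls. Its fall of 1.30 (SE 0.128, edgeR adjusted p = 0.00356) passed in 5 of 6 fits with a library left out, more than any of the 36 genes, each of which passed in at most 3. CLSPN, the claspin gene that couples ATR to CHEK1, fell by 1.26, MCM8, a helicase gene of recombination, by 1.13, and TOPBP1, the activator of ATR, by 0.86 (edgeR adjusted p = 0.0204, 0.0141 and 0.0287). RPA3, the smallest subunit of the single-strand binding protein, fell by 0.95, and USP1, which removes ubiquitin from FANCD2, by 0.57 (edgeR adjusted p = 0.0479 and 0.0402).

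The 2 genes that rose encode partners in a nuclease that cuts branched DNA. MUS81, its catalytic subunit, was at 78.8, 75.4 and 72.8 CPM in knockdown libraries, against 40.1, 54.9 and 42.5 CPM in controls, a rise of 0.72 in log2 terms (edgeR adjusted p = 0.0339, SE 0.157). EME2, a regulatory subunit of MUS81, was at 10.8, 10.5 and 11.4 CPM in knockdown libraries, against 5.78, 6.36 and 5.02 CPM in controls, a rise of 0.93 (SE 0.213, edgeR adjusted p = 0.0406). Both lay wholly above the controls in CPM, while in TPM MUS81 did (81.8 ± 3.49 TPM in knockdown, 39.7 ± 18.4 TPM in control, SD, n = 3 each) and EME2 overlapped (3.03 ± 0.386 TPM in knockdown, 2.87 ± 1.17 TPM in control). Each passed in 1 of 6 fits with a library left out, that without control library 2, and the log2 fold change of MUS81 was 0.60 to 0.88 and that of EME2 0.80 to 1.01 over these fits.

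The repair genes lay between genes of cell division and genes of end joining. Of 30 DNA replication genes 22 fell and none rose, with a median log2 fold change of -1.09, and of 25 mitosis genes 22 fell and none rose, with a median of -1.22. Of 15 genes of non-homologous end joining, 2 fell and none rose, with a median of -0.02. Over all tested genes 3.72% fell and 4.59% rose, so in a list of this length the absence of a rise is no result about it. These lists are set side by side and the differences between them were not tested.

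**Figure D3:**
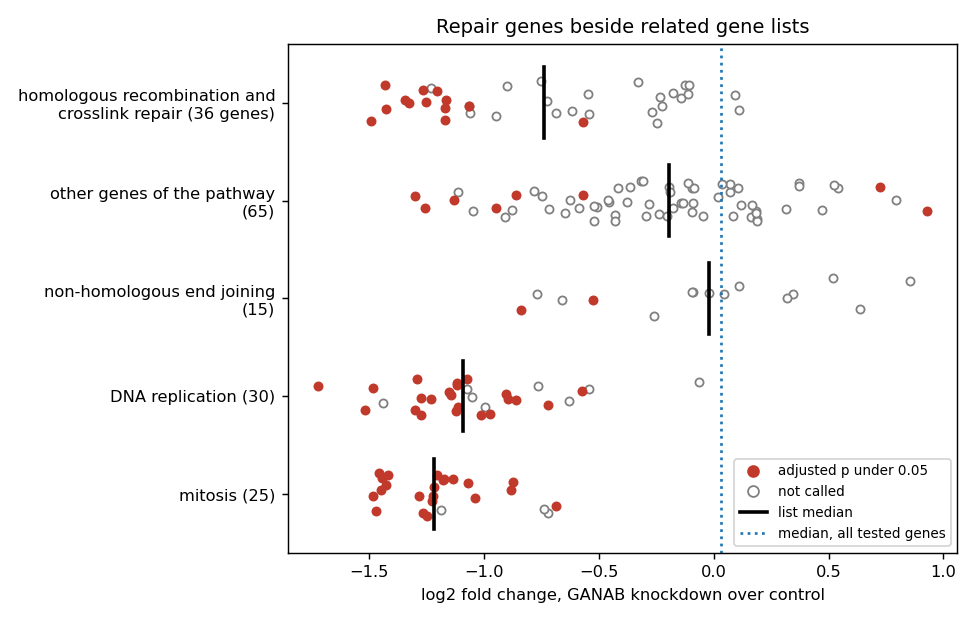
Log2 fold change, GANAB knockdown over control, of every gene in 5 lists; red points passed at an adjusted p under 0.05, black bars are list medians and the dotted line is the median of all tested genes. The 36 repair genes spread from -1.49 to 0.11, while the highest of the mitosis genes is at -0.69.

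Each repair gene was then set against the 6 genes of the replicative helicase, MCM2 to MCM7, in the same library. These 6 genes summed to 563, 559 and 571 CPM in knockdown libraries 1, 2 and 3, against 1083, 1335 and 1112 CPM in control libraries. Per 100 CPM of the helicase genes, 14 of 36 repair genes were wholly higher in the knockdown, 2 wholly lower and 20 overlapped between groups. Of all tested genes 74.4% were wholly higher on this scale and 1% wholly lower. FANCD2 averaged 3.84 in knockdown and 5.09 in control libraries, with overlapping groups. BRCA1 averaged 4.16 in knockdown and 4.57 in control, RBBP8 2.40 in knockdown and 2.42 in control, and UBE2T 2.18 in knockdown and 2.15 in control libraries, all overlapping as well. The 2 genes wholly lower were RAD51AP1 (mean of 2.15 in knockdown, 2.48 in control) and RAD54L (2.58 in knockdown, 3.10 in control). Of the 13 genes that fell in CPM, 10 overlapped on this scale and 1, MRE11, was wholly higher (6.60 in knockdown, 4.76 in control). The other 13 wholly higher genes were all ones that had not passed in CPM, among them ATM (19.1 in knockdown, 8.92 in control), NBN (13.96 in knockdown, 7.78 in control), CHEK1 (8.41 in knockdown, 4.85 in control) and FANCC (4.20 in knockdown, 1.85 in control). Because the helicase sum was lower in the knockdown, a gene unchanged in CPM comes out higher on this scale. These ratios are values of each library and carry no test.

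**Figure D4:**
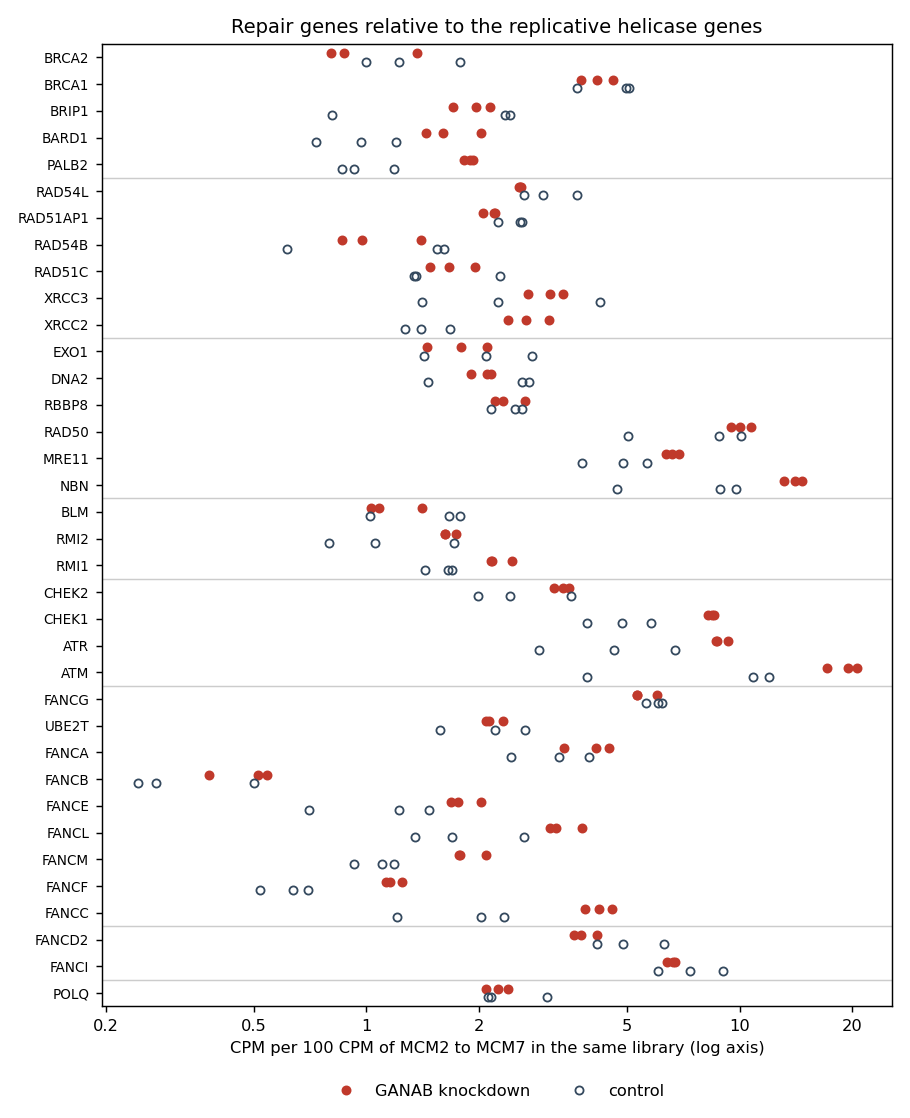
CPM of each repair gene per 100 CPM of MCM2 to MCM7 in the same library, on a log axis, filled points for the 3 GANAB knockdown and open points for the 3 control libraries. FANCD2, FANCI, BRCA1 and POLQ overlap between groups, while ATM, ATR, CHEK1, NBN and FANCC lie to the right in the knockdown.

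The control libraries differed among themselves in a pattern that ran across the repair genes. Their coefficient of variation had a median of 8.68% in the knockdown and 26.8% in the control group, and it was larger in the controls for 29 of 36 genes. Control library 2 was the highest control for 17 genes and the lowest for 13. It was high for short transcripts such as UBE2T, CHEK2, RMI2 and FANCL and low for long ones such as ATM, ATR, RAD50 and BRIP1. Exceptions ran both ways. FANCE, a short transcript, was low there (log2 ratio of -0.66 to the mean of the other controls). BRCA1, BLM and FANCD2, long transcripts that fell in the knockdown, were high there (0.52, 0.70 and 0.76). Across the 36 genes, the log2 ratio of control library 2 to the mean of the other controls had r = -0.516 (Spearman rho -0.514) with the log2 length of the longest annotated coding transcript, and that of control library 1 had r = 0.686 (rho 0.648). That ratio of control library 3 had r = 0.246 (rho 0.209). Each control library enters the ratios of the other controls, so these trends are not independent. The genes share the libraries. With GC content, r was 0.406 in control library 2, -0.412 in control library 1 and -0.324 in control library 3. Length and GC content were not separated. The knockdown over control log2 fold change had r = 0.077 with length and -0.028 with GC content. The part of library quality in these differences was not tested.

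**Figure D5:**
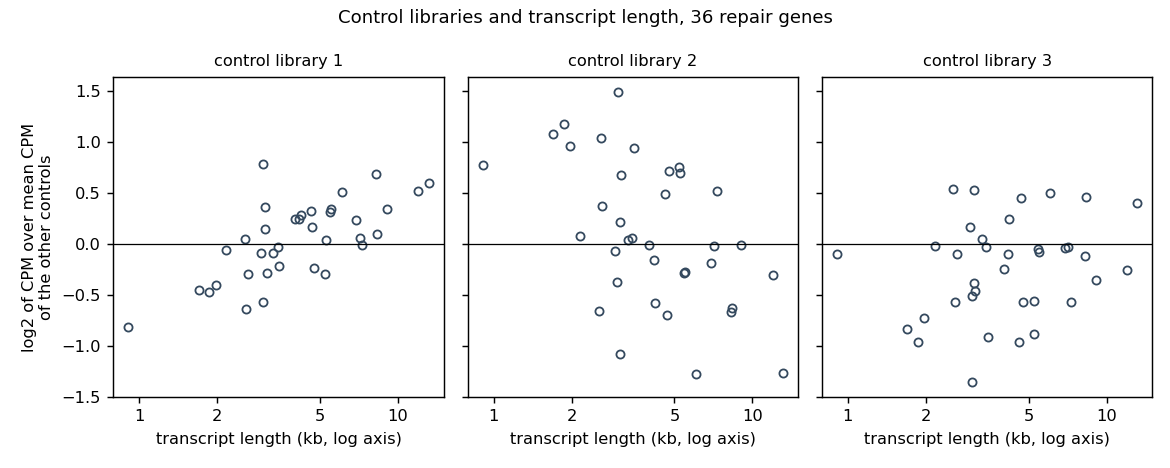
Log2 ratio of each control library's CPM to the mean of the other controls, for the 36 repair genes, against transcript length in kilobases on a log axis. The ratio climbs with length in control library 1 and declines in control library 2. Each control library enters the ratios of the other controls, so these trends are not independent.

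On the deposited TPM scale, which corrects for transcript length, the repair genes averaged 1.82 to 38.2 TPM over the 6 libraries, with a median of 11.84. FANCG was highest, at 28.2 ± 2.31 TPM in knockdown and 48.1 ± 23.3 TPM in control libraries, and UBE2T next, at 22.4 ± 1.64 TPM in knockdown and 41.9 ± 21.9 TPM in control libraries (SD, n = 3 each). FANCB was lowest, at 1.82 ± 0.762 TPM in knockdown and 1.82 ± 0.374 TPM in control libraries, and POLQ and BRCA2 averaged under 5 TPM in both groups. The mitochondrial ribosomal RNA of control library 1 took 301300 TPM there and lowered every other value of that library. On log2(TPM + 1) no repair gene passed (limma, 9 at an unadjusted p under 0.05), the median over the 36 was -0.39 and that over all tested genes 0.23. With the 2 mitochondrial genes taken out and TPM rescaled, an alternative chosen after seeing the data, 7 passed, all lower: RAD51AP1, RAD54L, RAD50, RBBP8, DNA2, FANCD2 and FANCI.

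Promoters were searched for letters linked to cell cycle transcription, since 13 genes fell together. RefSeq promoter sequences (GRCh38.p14) were matched for 31 of the 36 genes, from 250 bases before to 50 after an annotated start. An E2F-type site, written as TTTCCCGC, TTTCGCGC, TTTGCCGC or TTTGGCGC on either strand, was found in the 250 bases before the start in 3 of 31 genes (9.68%), against 5.41% of 12017 tested genes with an entry. None of these 3, FANCA, FANCC and RMI1, was among those that fell. With the 50 bases after the start included, 6 of 31 had it (19.4%), against 6.36% of tested genes, and the 3 added were FANCD2, EXO1 and XRCC2. CCAAT was found before the start in 16 of 31 (51.6%, against 41.2%), and TTTGAA or TTCGAA, the cell cycle homology region, in 5 of 31 (16.1%, against 13.9%). The 6 genes with an E2F-type match are shown 5′ to 3′ on the gene's own strand with the match in capitals, to show where it lies; FANCD2 and EXO1 fell, and the others did not pass. FANCC has another match in the same entry.
FANCD2, chr3:10026424-10026453, plus strand, match starting 2 bases before the start: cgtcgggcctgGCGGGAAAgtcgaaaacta
EXO1, chr1:241848197-241848226, plus strand, match starting at base 5 after the start: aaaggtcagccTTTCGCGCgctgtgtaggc
XRCC2, chr7:152676102-152676131, minus strand, match starting at base 22 after the start: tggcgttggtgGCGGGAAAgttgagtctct
RMI1, chr9:83980745-83980804, plus strand, match starting 32 bases before the start: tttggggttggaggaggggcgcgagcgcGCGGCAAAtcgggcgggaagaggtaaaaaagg
FANCA, chr16:89816786-89816845, minus strand, match starting 172 bases before the start: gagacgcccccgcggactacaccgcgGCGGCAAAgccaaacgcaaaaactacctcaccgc
FANCC, chr9:95317848-95317907, minus strand, match starting 172 bases before the start: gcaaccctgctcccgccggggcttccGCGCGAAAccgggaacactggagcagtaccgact

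FANCD2 and XRCC2 carry the same letters next to their starts, and their log2 fold changes were -1.49 and -0.14. A match is a run of letters and not a bound site, and genes without a match in this window may hold one elsewhere.

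Overlapping genes could limit some values, because the sources used here do not say whether counting used strand. In GENCODE release 29 (GRCh38), 22 of the 36 genes overlap a gene of the opposite strand, 12 another gene of their own strand, and 11 overlap none. These are overlaps of whole gene spans, introns included, and overlap of exons was not tested. Among the 13 that fell, RAD51AP1, EXO1 and FANCG overlap no other gene, while FANCI overlaps POLG and RAD54L overlaps LRRC41 on the opposite strand.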

How the data were processed

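RNA-seq libraries of 3 GANAB knockdown and 3 control tumour samples were compared. The authors deposited estimated counts per gene, all whole numbers, in a table whose genes have at least 15 counts in all and counts in at least 3 libraries, and a separate TPM table. Salmon, fastp and DESeq2 and the build GRCh38 are named, per the submitters' processing notes; the treatment of mouse reads and the strand counted were not found in these sources.

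Counts were fitted over all genes with edgeR 4.0.16 in R 4.3.3 (TMM, filterByExpr, which removed 2073 of 21503 genes, quasi-likelihood test, 2-sided, Benjamini-Hochberg adjusted p under 0.05). Standard errors came from the log2 fold change and F. TPM values were tested with limma 3.58.1 on log2(TPM + 1) for genes averaging 1 TPM or more. Alternatives were RLE scaling, DESeq2 1.42.0, limma-voom, other filters and pseudocounts, each library left out, the knockdown libraries summed, a replicate block and a host marker score as covariate. On simulated counts (19430 genes, 200 changed) with each group's own spread, the test found 7% of the genes changed 2-fold and 45% of those changed 4-fold, with 6 calls among 19230 unchanged genes.

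Up to 4 genes of each role with the smallest p are given in every library, with called genes of the wider pathway and the most abundant host markers; the genes set against the helicase, described in TPM or named as examples were chosen after their values were seen. The repair genes and the other lists were chosen with earlier results of these data known. PARI was matched as PARPBP through RefSeq synonyms. The result of 1 gene of the wider pathway is not reported here.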

Additional observations from a re-analysis of the deposited data

How the results depend on the processing

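The direction held for the 13 genes that fell in all settings run, but the calls did not. Against 722 genes lower and 892 higher over all genes, DESeq2 called 1802 and 1853, limma-voom 2013 and 1703, the replicate block 214 and 352, the host marker covariate 43 and 33 and the summed knockdown libraries 0 and 1. On TPM, limma called 77 lower and 751 higher with a pseudocount of 1, 56 lower and 470 higher with 0.1, 3 lower and 43 higher without the filter, and 277 lower and 813 higher with mitochondrial rRNA taken out, a setting chosen after seeing the data. Repair genes lower numbered 20 in DESeq2, 7 with the replicate block, 0 with the host covariate, with summed knockdown libraries and in the 3 TPM settings, and 7 with rRNA taken out. Other pathway genes lower, 6 in all, numbered 14 in DESeq2, 12 in limma-voom, 3 with the block, 1 with the host covariate, 0 with summed libraries and in the 3 TPM settings, and 3 with rRNA taken out. Those higher, 2 in all, numbered 5 in limma-voom, 1 with rRNA taken out and 0 in the others named here except DESeq2. Leaving out 1 library gave 9 to 2796 genes lower, 53 to 2808 higher, 0 to 22 repair genes lower, 0 to 0 higher, and 0 to 15 and 0 to 5 of the other pathway genes. The cause was not tested. Same-numbered libraries did not deviate together (r of 0.00223, 0.0171 and 0.0218). The large differences among the control libraries could hide a shared deviation, so these values cannot show whether the numbers pair the samples.

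Uncalled genes changed sign. In TPM with pseudocounts of 1 and 0.1, without the filter and with rRNA taken out, BARD1 was at 0.21, 0.27, 0.21 and 0.10 and PALB2 at 0.27, 0.33, 0.27 and 0.15 on the log2 scale. In the same order NBN was at 0.15, 0.16, 0.15 and 0.00997 and FANCL at 0.18, 0.20, 0.18 and 0.044. In the first 3 settings XRCC2 was at 0.068, 0.085 and 0.068, FANCF at 0.078, 0.11 and 0.078 and FANCM at 0.036, 0.045 and 0.036. With the host covariate RMI2 was at 0.085, FANCL at 0.39 and ATM at -0.74. In limma-voom FANCL was at 0.035 and ATM at -0.13. With 1 library left out, ATM ranged from -0.22 to 0.31, ATR from -0.31 to 0.13, FANCL from -0.55 to 0.18 and FANCC from -0.19 to 0.27; the negative end of ATM and the positive end of FANCL came without control library 2, the positive end of ATR without control library 1 and the negative end of FANCC without control library 3. Depth limits FANCB most, and FANCB was not tested with at least 5 CPM in 3 libraries.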

Other observations

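Among 15 genes of non-homologous end joining, the pair that binds broken ends fell. XRCC6, the gene of Ku70, was at 235, 239 and 244 CPM in knockdown libraries, against 372, 488 and 424 CPM in controls (log2 fold change -0.84, edgeR adjusted p = 0.0178, SE 0.144). XRCC5, the gene of Ku80, was at 210.1, 198 and 207 CPM in knockdown libraries, against 272, 315 and 300.004 CPM in controls (log2 fold change -0.53, SE 0.125, edgeR adjusted p = 0.0448). In neither gene did the groups overlap. PRKDC, which encodes the kinase that joins the pair, was lower without passing (log2 fold change -0.77, SE 0.253), and LIG4, the ligase of the final step, lay wholly higher without passing (0.52, SE 0.240). TP53BP1, which opposes resection, had a log2 fold change of -0.02 (SE 0.123).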
